A study of Mus musculus with 20 samples.

Results

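The genes described here are 8 transcription factor genes of the olfactory placode and its neurons: Ebf1, Ebf2 and Ebf3 of the early B cell factor family, the placode and progenitor factors Emx2, Sp8 and Sox2, and the proneural factors Neurog1 and Neurod1. They were taken as a named list from the 21938 protein-coding genes of the GENCODE vM21 annotation. A peak was given to a gene when it overlapped the gene body, or when no protein-coding gene had a start site closer to the peak and that site lay within 100 kb. By this rule 128 of 144852 peaks belonged to the 8 genes. The peaks mark H3K27ac, a histone acetylation, and were called by ChIP-seq on mixed cells from facial tissue of WT mouse embryos. There were libraries of both nasal plates (medial nasal plate and lateral nasal plate) and both jaw processes (mandibular process and maxillary process) at e11.5, and of nose, mandibular process and maxillary process at e13.5 and e15.5. Each tissue had 1 library per stage, so no tissue had replicates. Here the medial and lateral nasal plates of e11.5 and the nose of e13.5 are called nasal (3 libraries), and the mandibular and maxillary processes of the same stages jaw (4 libraries).

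H3K27ac is found at active promoters and enhancers, so a list of its peaks gives places where regulatory DNA of a gene may be in use in at least some cells of the tissue. The olfactory placode is a thickening of the surface ectoderm that sinks into the nasal tissue, forms the olfactory epithelium and gives rise to olfactory sensory neurons. Sox2 is a factor of progenitor cells, Emx2 and Sp8 act in the placode, the olfactory epithelium and the forebrain, Neurog1 and Neurod1 are basic helix-loop-helix factors that act in sequence as neurons form, and the Ebf factors act in maturing olfactory neurons, with other roles in facial mesenchyme and elsewhere. In dissected tissue, fewer cells of a type and less acetylation per cell cannot be told apart.

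For the 3 libraries of e15.5 the tissue in the label went against the deposited peak names. The library labelled mandibular process had peaks named for the nose, that labelled maxillary process had peaks named for the mandibular process, and that labelled nose had peaks named for the maxillary process. These libraries are given by their labels, were left out of the comparison of nasal with jaw tissue, and entered comparisons of stages as a set. The lists held 20492 to 25941 peaks in the nasal libraries and 6571 to 10753 in the jaw libraries. Numbers of peaks were therefore also given per 10000 peaks of the library (scaled peak number), and were counted again among the 6571 peaks of lowest q-value in each library (equal yield). The number of reads behind a list is unknown, and a gene without a called peak may still carry the mark.

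Of the regions made by merging the peaks of all libraries, 6 regions of the 8 genes had a peak in all 3 nasal libraries and in no jaw library. The sequences at the centre of the stretch shared by the nasal peaks are shown for 4 of these regions, since they are the DNA on which the nasal peaks of these genes coincided. All are 300 bases of the mm10 build on the plus strand. The Emx2 window, at chr19:59423944-59424243, lay in a region centred 34.03 kb before the gene, which touched an exon of the antisense transcript Emx2os. The Sp8 windows, at chr12:118842983-118843282 and chr12:118854910-118855209, lay in intergenic regions centred 3.205 kb before and 8.363 kb after the start of Sp8. The Sox2 window, at chr3:34614159-34614458, lay in a region centred 35.98 kb before Sox2, in an intron of the noncoding transcript Sox2ot. Capitals mark any match to 4 motifs searched on both strands: TCCC and GGGA with 2 bases between them (bound by Ebf factors), CATCTG (bound by proneural factors), ACAATG (bound by Sox factors) and TAATTA (bound by homeodomain factors such as Emx2). The motifs do not contain each other.
Emx2 upstream: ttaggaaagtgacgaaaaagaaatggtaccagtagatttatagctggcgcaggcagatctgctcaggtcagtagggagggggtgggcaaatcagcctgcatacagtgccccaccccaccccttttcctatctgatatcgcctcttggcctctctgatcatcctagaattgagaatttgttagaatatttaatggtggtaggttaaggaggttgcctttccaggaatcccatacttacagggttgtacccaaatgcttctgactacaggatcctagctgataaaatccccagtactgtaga
Sp8 upstream: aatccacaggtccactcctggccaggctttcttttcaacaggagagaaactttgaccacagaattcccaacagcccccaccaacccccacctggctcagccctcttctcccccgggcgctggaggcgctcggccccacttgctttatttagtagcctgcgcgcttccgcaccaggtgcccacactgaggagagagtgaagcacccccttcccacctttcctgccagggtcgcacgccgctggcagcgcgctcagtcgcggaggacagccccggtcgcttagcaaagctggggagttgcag
Sp8 downstream: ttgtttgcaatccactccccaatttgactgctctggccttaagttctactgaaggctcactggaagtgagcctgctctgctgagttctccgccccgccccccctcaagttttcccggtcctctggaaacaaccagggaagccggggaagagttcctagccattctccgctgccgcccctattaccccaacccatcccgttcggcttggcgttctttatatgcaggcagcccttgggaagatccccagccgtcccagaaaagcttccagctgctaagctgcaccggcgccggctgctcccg
Sox2 upstream: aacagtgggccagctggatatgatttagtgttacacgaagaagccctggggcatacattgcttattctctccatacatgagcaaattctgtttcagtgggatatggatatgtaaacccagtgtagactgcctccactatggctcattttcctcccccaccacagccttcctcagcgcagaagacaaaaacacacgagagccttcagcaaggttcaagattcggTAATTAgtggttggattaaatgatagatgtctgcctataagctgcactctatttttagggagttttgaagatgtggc

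The Sox2 window held 1 TAATTA, and the other 3 windows held no match to any of the 4 motifs. Among 2494 regions with the same nasal pattern, windows built in the same way held TAATTA in 5.57%, CATCTG in 23.8%, ACAATG in 13.6% and the Ebf motif in 0.882%. The Sp8 windows had a GC content of 62.7% and 59%, with 16 and 14 CpG pairs. The Emx2 and Sox2 windows had 46.3% and 44.7%, with 3 and 4 CpG pairs, against a median GC content of 50.7% over all such windows.

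Promoters are shown for Emx2, which had a peak within 1 kb of a start site in 8 of 10 libraries, and for Neurog1 and Neurod1, which had none in any library. The sequences come from RefSeq on GRCm38, the assembly of mm10, and run from 250 bases before to 50 bases after the start, in the direction of transcription. RefSeq promoters were matched for 7 of the 8 genes, all but Ebf2. The Emx2 promoter is chr19:59458440-59458739 on the plus strand, the Neurog1 promoter chr13:56252131-56252430 on the minus strand and the Neurod1 promoter chr2:79456587-79456886 on the minus strand.
Emx2 promoter: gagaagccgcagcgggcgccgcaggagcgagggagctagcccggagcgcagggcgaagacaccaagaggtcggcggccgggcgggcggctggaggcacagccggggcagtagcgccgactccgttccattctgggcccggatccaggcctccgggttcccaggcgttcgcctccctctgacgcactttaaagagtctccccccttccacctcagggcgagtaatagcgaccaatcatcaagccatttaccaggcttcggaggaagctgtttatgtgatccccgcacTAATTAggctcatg
Neurog1 promoter: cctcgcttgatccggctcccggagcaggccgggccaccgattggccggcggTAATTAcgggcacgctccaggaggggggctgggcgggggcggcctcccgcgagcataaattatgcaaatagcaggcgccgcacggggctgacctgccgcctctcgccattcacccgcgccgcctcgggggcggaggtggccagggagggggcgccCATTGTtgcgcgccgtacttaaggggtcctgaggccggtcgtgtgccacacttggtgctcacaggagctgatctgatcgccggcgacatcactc
Neurod1 promoter: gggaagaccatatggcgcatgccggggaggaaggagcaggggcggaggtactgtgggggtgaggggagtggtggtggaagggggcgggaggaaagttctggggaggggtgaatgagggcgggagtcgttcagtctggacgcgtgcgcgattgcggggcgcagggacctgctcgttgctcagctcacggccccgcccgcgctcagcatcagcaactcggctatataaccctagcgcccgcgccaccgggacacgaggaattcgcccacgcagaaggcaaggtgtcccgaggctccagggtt

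All 3 promoters were rich in CpG, with a GC content of 64.3% for Emx2, 69.3% for Neurog1 and 66.7% for Neurod1, and with 26, 32 and 26 CpG pairs against a median of 7 over 32851 promoters. The Emx2 promoter held 1 TAATTA and the Neurog1 promoter held 1 TAATTA and 1 ACAATG on the opposite strand. In all promoters TAATTA was found in 5.29% and ACAATG in 12.6%. High GC content was thus seen at a promoter with called peaks and at promoters without them. Promoters not shown, of genes with start peaks in some libraries, went both ways. GC content was 77% for Ebf3 and 66.3% for Sox2, but 36.7% for Ebf1 and 43% for Sp8, against a median of 52.7% over all promoters.

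The 8 genes had 28 peaks in medial nasal plate, 29 in lateral nasal plate and 32 in nose of e13.5. The jaw libraries had 4 in the e11.5 mandibular process, 6 in the e11.5 maxillary process, 2 in the e13.5 mandibular process and 4 in the e13.5 maxillary process. At e15.5 the libraries labelled mandibular process, maxillary process and nose had 11, 9 and 3. As a share of all peaks of a library these came to 0.123% to 0.137% in the nasal libraries and to 0.029% to 0.0913% in the jaw libraries. The ranges did not overlap, but the exact 95% interval of the nasal library with the lowest share, 0.0844% to 0.174%, overlapped that of the e11.5 maxillary process, 0.0335% to 0.199%. Intervals of this kind cover counting error only. Of the 8 genes, 6 had a peak in each nasal plate and 7 in the nose of e13.5, against 2 to 4 in the jaw libraries. These counts were not set against the share of all genes with a peak in each library. The nasal lists were also the longer ones, so the counts do not show a nasal trait of these genes.

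**Figure D1:**
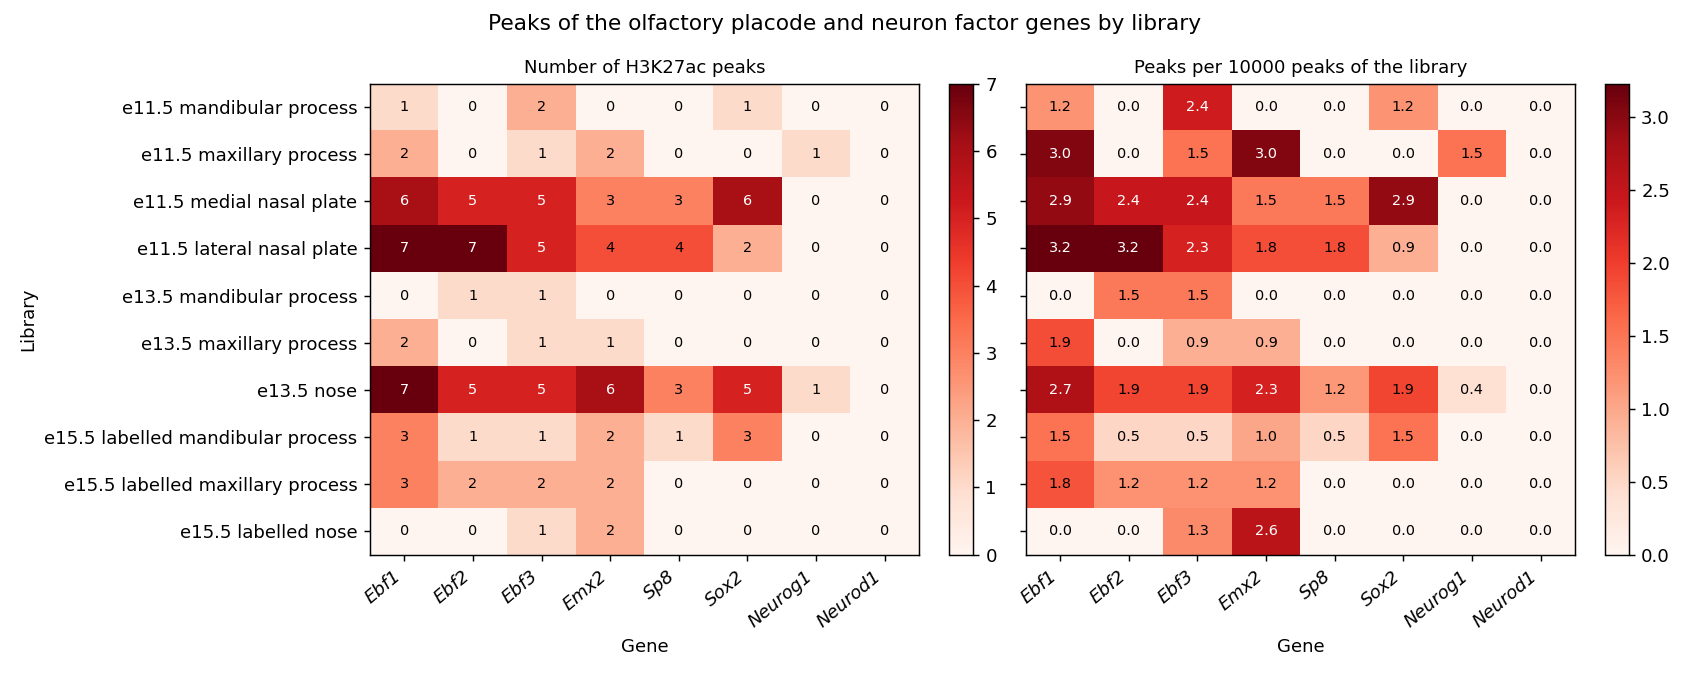
Number of H3K27ac peaks (left) and peaks per 10000 peaks of the library (right) for each of the 8 genes (columns) in each of the 10 libraries (rows). The 3 nasal rows hold 28 to 32 peaks in all and the 4 jaw rows 2 to 6, and Neurod1 is at 0 throughout.

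Sp8 encodes a zinc finger factor needed for outgrowth of the midface and expressed in the olfactory placode. It had 3 peaks in the medial nasal plate, 4 in the lateral plate and 3 in the nose of e13.5. It had 0 peaks in all 4 jaw libraries, and 1, 0 and 0 in the e15.5 libraries labelled mandibular process, maxillary process and nose. Every nasal library thus lay above every jaw library, scaled or not, against 9.45% and 22.1% of the genes tested. Peaks covered 3703, 4393 and 6723 bp in the nasal libraries in the same order. The widest, of 4668 bp in the nose of e13.5, ran across the start and most of the gene body of 6.248 kb. A peak within 1 kb of a start site was found in lateral nasal plate, nose of e13.5 and the e15.5 library labelled mandibular process, whose peaks are named for the nose. The medial nasal plate had no peak there, and its 3 peaks lay before and after the gene. The Sp8 regions 3.205 kb before and 8.363 kb after the start, whose sequences are shown above, were each present in all 3 nasal libraries.

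Sox2 encodes an HMG box factor of neural and sensory progenitors and has a single exon, inside the longer noncoding transcript Sox2ot. It had 6 peaks in the medial nasal plate, 2 in the lateral plate and 5 in the nose of e13.5. The e11.5 mandibular process had 1, at the far end of the window 96.86 kb after the start, and the other 3 jaw libraries had 0. At e15.5 the library labelled mandibular process had 3 and the other two had 0. Every nasal library thus had more peaks than every jaw library, against 22.1% of the genes tested. Scaled, however, the lateral nasal plate, at 0.922, lay below the e11.5 mandibular process, at 1.19. A peak within 1 kb of the start was found in all 3 nasal libraries, in no jaw library, and at e15.5 only in the library labelled mandibular process. Its width was up to 4828 bp in the medial nasal plate, 2631 bp in the lateral nasal plate, 4038 bp in the nose of e13.5 and 4175 bp in that e15.5 library. The region 35.98 kb before the start was present in the nasal libraries and in no other. A region centred 14.2 kb after the start was present in the medial nasal plate, the nose of e13.5 and the e15.5 library labelled mandibular process. This region lay within 1 kb of an annotated start site that is not that of Sox2.

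Emx2 encodes a homeodomain factor of the olfactory epithelium and the forebrain. It had 3 peaks in the medial nasal plate, 4 in the lateral plate and 6 in the nose of e13.5. The jaw libraries had 0 in the mandibular process and 2 in the maxillary process at e11.5, and 0 and 1 at e13.5. The e15.5 libraries had 2 each. Its start was the place shared by most libraries, with a peak in 8 of 10, all but the mandibular processes of e11.5 and e13.5. The widest start peak of a library measured 898 bp in the e11.5 maxillary process, 1989 bp in the medial nasal plate, 1369 bp in the lateral nasal plate, 6673 bp in the e13.5 maxillary process and 8375 bp in the nose of e13.5. The last of these ranked 136 in width among the 25941 peaks of its library. At e15.5 the start peaks measured 7374, 3430 and 5014 bp in the libraries labelled mandibular process, maxillary process and nose. The start of Emx2 was thus marked in maxillary as well as nasal tissue. The start peaks of e13.5 and e15.5, at 3430 to 8375 bp, were all wider than any single start peak of e11.5. In the e11.5 nasal plates, however, the start was split between 2 adjacent peaks. They measured 1226 and 1989 bp in the medial and 1180 and 1369 bp in the lateral plate. Widths thus depend on how peaks were split, and were not compared over all genes.

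Away from its start, Emx2 had a region 34.03 kb upstream with peaks of 2886, 3460 and 2129 bp in the medial nasal plate, the lateral nasal plate and the nose of e13.5, and in no other library. A region centred 84.03 kb downstream, in an intron of the noncoding gene 2700089I24Rik, had peaks in the nose of e13.5 and in the e15.5 libraries labelled mandibular process and maxillary process, and in no e11.5 library. This region lay within 1 kb of an annotated start site that is not one of Emx2. In the nose of e13.5 its −log10 q was 6.69, and 33.36% of the peaks of that library ranked at or above it.

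**Figure D2:**
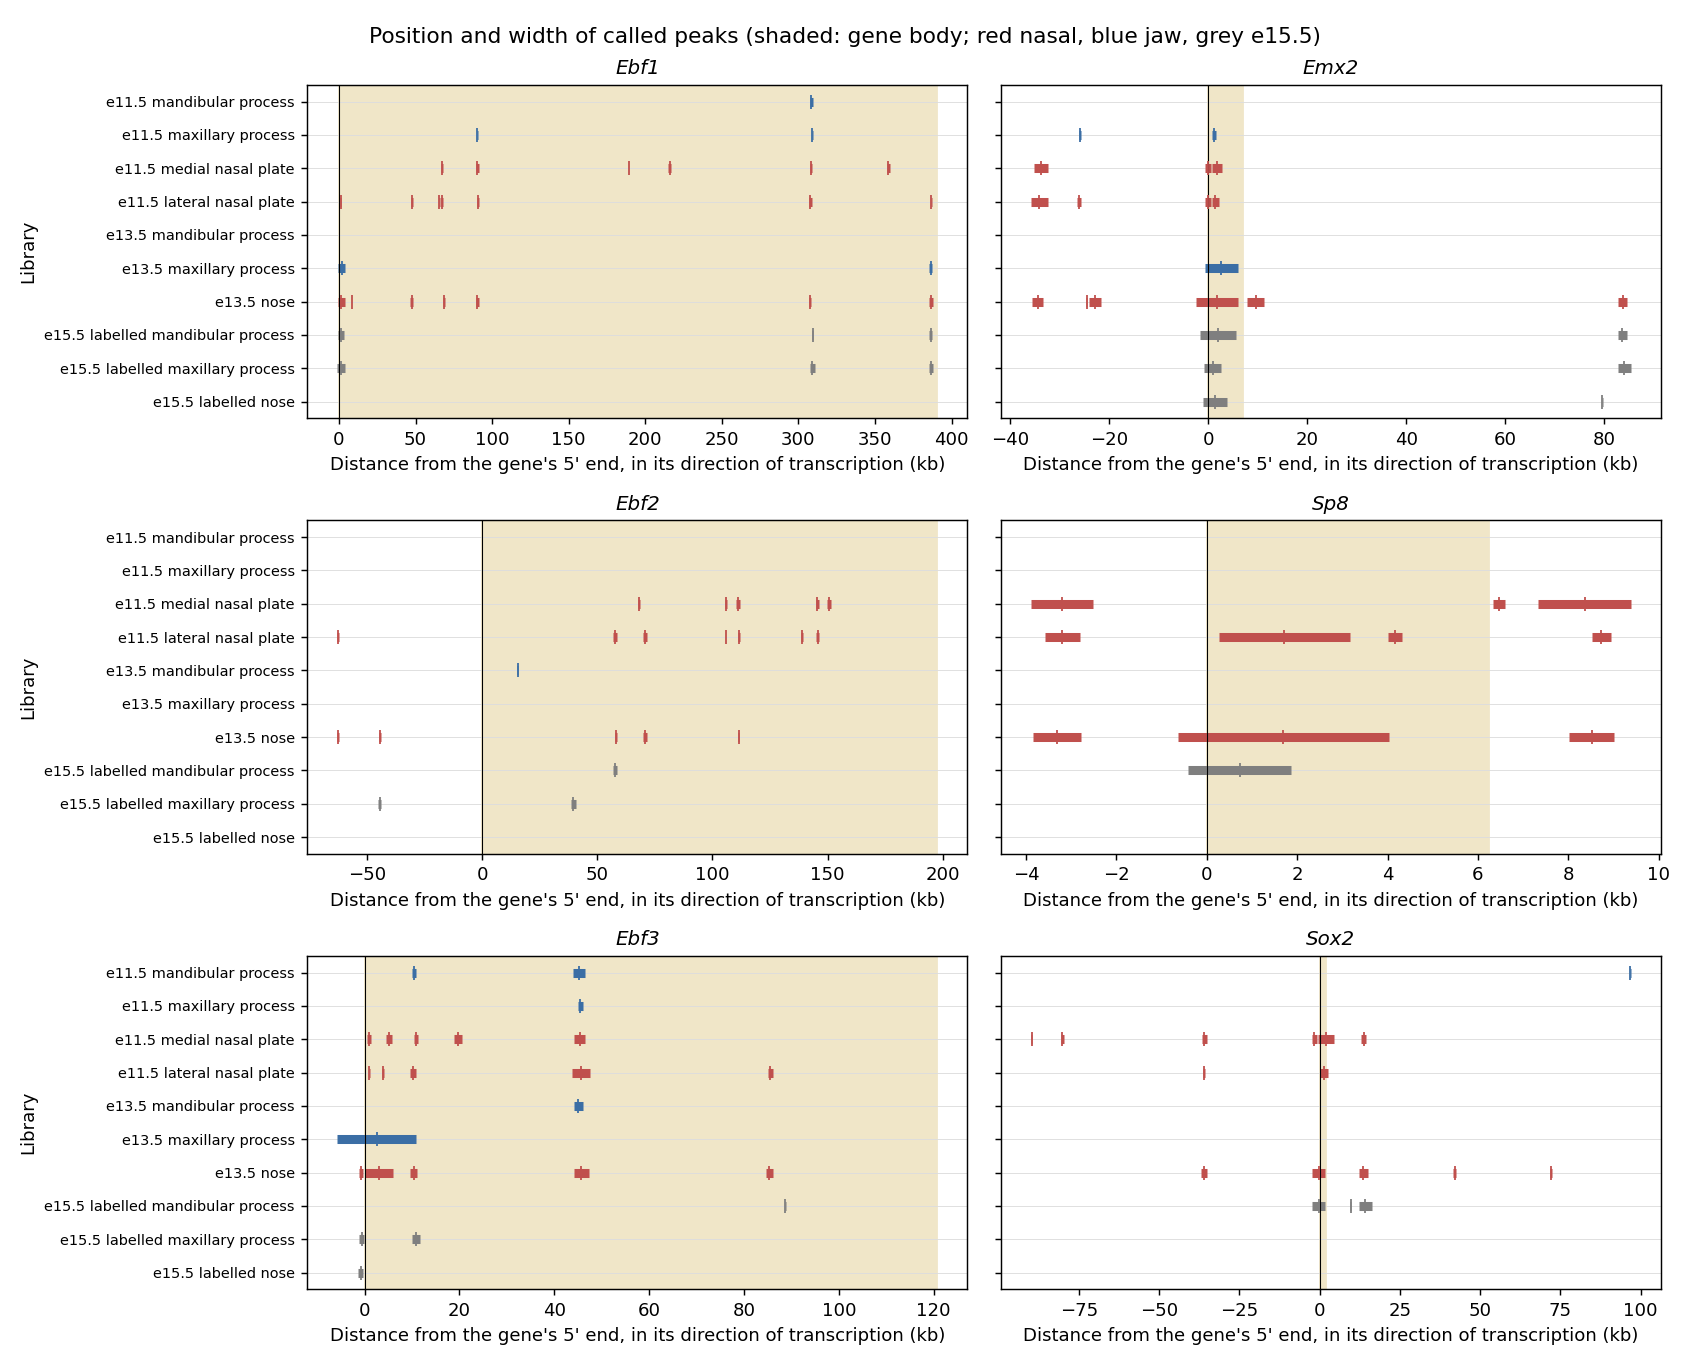
Position and width of each called peak of 6 genes, as distance in kb from the start of the gene in its direction of transcription (x axis), by library (y axis). Shading shows the gene body, red bars are nasal, blue bars jaw and grey bars e15.5 libraries. Sp8 has no blue bar, Ebf2 has 1, and the Emx2 start carries a bar in 8 of 10 rows.

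Among the Ebf genes, which encode helix-loop-helix factors with a DNA-binding domain of their own, Ebf1 is the longest, at 390.8 kb. It had 6 peaks in the medial nasal plate, 7 in the lateral plate and 7 in the nose of e13.5. The jaw libraries had 1 in the mandibular process and 2 in the maxillary process at e11.5, and 0 and 2 at e13.5. The e15.5 libraries had 3, 3 and 0. The nasal counts lay above every other library, but scaled, the e11.5 maxillary process (3.04) lay above the medial nasal plate (2.93) and the nose of e13.5 (2.70). All 31 Ebf1 peaks overlapped the gene body, and 15 of them lay more than 100 kb from the start of Ebf1. The region shared by most libraries, 7 of 10, was centred 308.8 kb into the gene and overlapped an exon. The start itself had a peak in 5 libraries, and its width was 703 bp in the lateral nasal plate and 3904 to 4953 bp in the 4 later libraries that had it.

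Ebf2 had 5 peaks in the medial nasal plate, 7 in the lateral plate and 5 in the nose of e13.5. Of the jaw libraries only the e13.5 mandibular process had a peak, of 303 bp. The e15.5 libraries had 1, 2 and 0. The nasal libraries all lay above the jaw libraries, scaled or not, against 9.45% and 22.1% of the genes tested. No library had a peak within 1 kb of any of the 3 start sites of Ebf2. Its 12 regions lay in introns (10) or 44.49 and 62.48 kb before the gene, and none was in more than 3 libraries. The region at 62.48 kb lay within 1 kb of an annotated start site that is not one of Ebf2. For 9 of its 21 peaks, Ebf2 was the host gene but not the nearest start site. Peaks of Ebf2 thus lay in introns and upstream, and not at its start.

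Ebf3 had at least 1 peak in every library, which held for no other of the 8 genes. It had 5 peaks in each nasal library. The jaw libraries had 2 in the mandibular process and 1 in the maxillary process at e11.5, and 1 and 1 at e13.5. The e15.5 libraries had 1, 2 and 1. A merged region centred 45.6 kb into the gene, with every peak within 1 kb of an internal start site of Ebf3, lay at chr7:137266947-137270748 and overlapped an exon. The −log10 q of its peak was 13.01 in the medial nasal plate, 10.2 in the lateral plate and 7.90 in the nose of e13.5. It was 3.03 in the mandibular process and 2.47 in the maxillary process of e11.5 and 1.58 in the mandibular process of e13.5. These values come from separate lists and do not compare levels between libraries. A peak was thus called in all 4 libraries of e11.5, in 2 of 3 of e13.5 and in none of the 3 of e15.5. Around the first start site, the e13.5 maxillary process had a single peak of 16644 bp, the 7th widest of its 10753, while the nose of e13.5 had separate peaks of up to 5970 bp there.

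Neurog1, which commits progenitors to a neuronal fate, had 1 peak in the e11.5 maxillary process, of 393 bp, 18.38 kb before the gene, and 1 in the nose of e13.5, of 1205 bp, 30.59 kb after its start. No other library had any. Their −log10 q was 1.55 and 1.58. Neurod1, which acts after Neurog1 as neurons differentiate, had no peak in any of the 10 libraries. Neither gene had a peak within 1 kb of its start in any library. The proneural factors thus had few or no called peaks at this depth, nasal tissue included, unlike Sox2, Emx2, Sp8 and the Ebf genes. Genes with so few peaks were common. Of all 21938 protein-coding genes, 14974 had a peak in any library and 12651 had at least 3 over all libraries.

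Most peaks of the 8 genes ranked low by q-value within their own libraries. In the nasal libraries, the weakest peak kept at equal yield had a −log10 q of 5.07 (medial nasal plate), 5.32 (lateral nasal plate) and 9.37 (nose of e13.5). Equal yield kept 6571 peaks of each library, out of 20492, 21689 and 25941 in the nasal libraries in the same order. The jaw lists, of 6571 to 10753 peaks, were thus kept in whole or in larger part. Of the 128 peaks of the 8 genes, 21 were kept. Of these, 2, 1 and 1 were in the nasal libraries in the same order, 4, 6, 2 and 2 in the jaw libraries (e11.5 mandibular and maxillary, then e13.5 mandibular and maxillary), and 1, 0 and 2 in the e15.5 libraries. The 4 nasal peaks kept were 3 of Ebf3 and the start peak of Emx2 in the nose of e13.5. At equal yield the 8 genes thus had no more peaks in nasal than in jaw libraries.

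**Figure D3:**
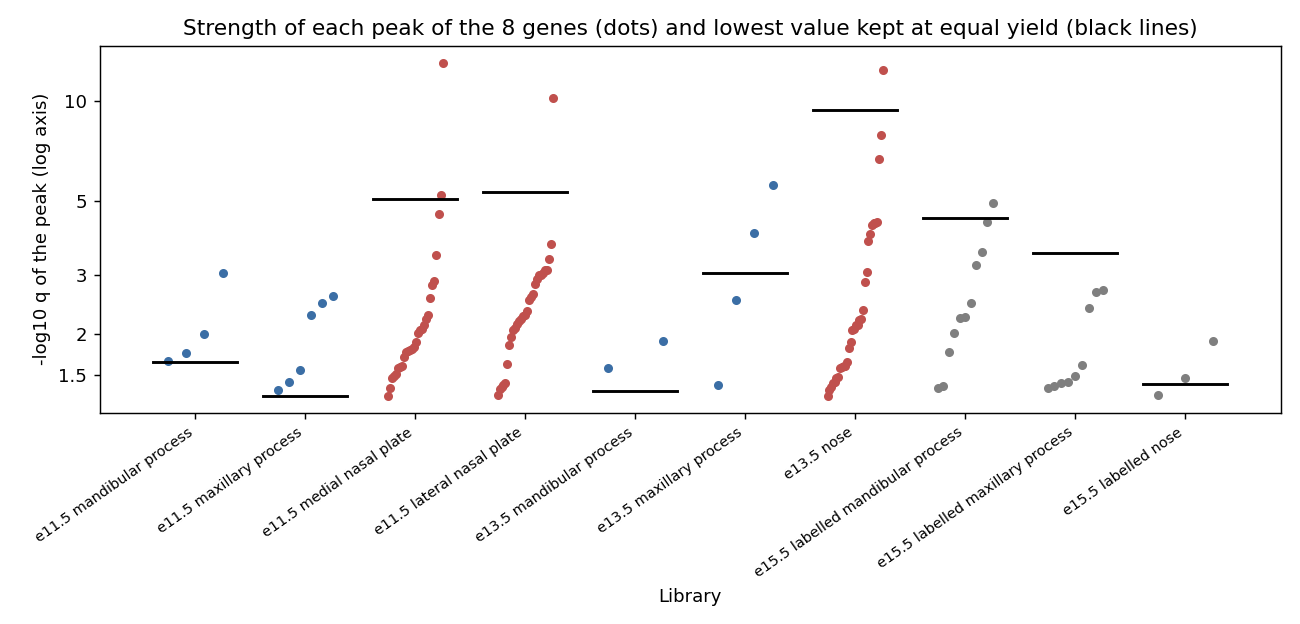
The −log10 q (y axis, log scale) of each of the 128 peaks by library (x axis), with a black line at the lowest value kept when 6571 peaks are taken from each library. Red dots are nasal, blue jaw and grey e15.5 libraries. In the 3 nasal libraries 4 of the dots lie above their line, 2 of them in the medial nasal plate.

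Nasal and jaw libraries were compared by the scaled number of peaks, with an exact two-sided permutation test per gene over the 35 ways of choosing 3 of 7 libraries. Genes with at least 3 peaks in these libraries were tested, which 6 of the 8 genes were, and Neurog1 and Neurod1 were not. The mean scaled number was 1.49 ± 0.344 (SD, n = 3) in nasal and 0 (n = 4) in jaw libraries for Sp8, with an exact permutation p of 0.0286, the smallest the design allows. Sp8 passed the filter through its nasal peaks alone, so this p was partly set by the filter. For Ebf2 it was 2.53 ± 0.655 against 0.363 ± 0.726 (exact permutation p = 0.0571). For Sox2 it was 1.93 ± 1.003 against 0.298 ± 0.595 (exact permutation p = 0.0857), and for Ebf1 2.95 ± 0.265 against 1.52 ± 1.27 (exact permutation p = 0.143). For Ebf3 it was 2.22 ± 0.266 against 1.57 ± 0.601 (exact permutation p = 0.171), and for Emx2 1.87 ± 0.425 against 0.993 ± 1.44 (exact permutation p = 0.343). After Benjamini-Hochberg adjustment over the 11710 genes tested, 0 genes passed 0.05 and 2513 had an unadjusted p under 0.05. The smallest adjusted p was 0.133, which all 2513 of these genes shared, Sp8 among them. No single gene of the 8 was thus shown to differ. With libraries exchanged only within a stage, 18 assignments were possible, the smallest p possible was 0.0556, which Sp8 had, and 0 genes had an unadjusted p under 0.05.

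**Figure D4:**
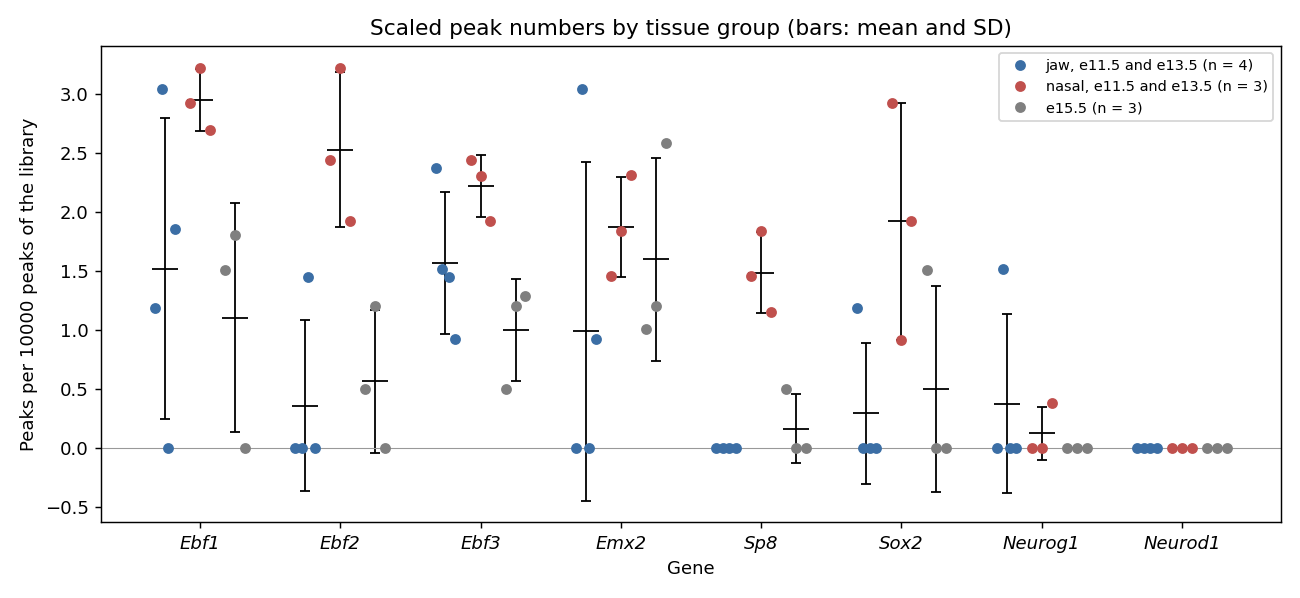
Peaks per 10000 peaks of the library (y axis) for each gene (x axis) in the jaw (blue, n = 4), nasal (red, n = 3) and e15.5 libraries (grey, n = 3). Dots are libraries, and bars show the mean and SD. The red and blue dots are apart for Ebf2 and Sp8 and overlap for the other genes with peaks.

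By order alone, every nasal library lay above every jaw library for 2 of the 8 genes, Sp8 and Ebf2, against 9.45% of the genes tested. For unscaled numbers this held for 6 of the 8 genes against 22.1%, and for base pairs covered per Mb of peaks for Sp8, Ebf2 and Sox2 against 12.2%. Sp8 passed the filter only through its nasal peaks, and Ebf2 nearly so, so the order of these genes was partly set by the filter. The median difference in scaled number was 1.15 over the 8 genes, including the 2 not tested, and −0.0852 over all genes tested. At equal yield the order held for 0 of the 8 genes, of which 3 could be tested, against 0.638% of all genes. With the e15.5 libraries added by their labels it held for 0 of the 8, against 0.316%, but this rests on the labels that the peak names go against. The single e15.5 peak of Sp8, a scaled number of 0.505, was in the library labelled mandibular process, whose peaks are named for the nose, and Sp8 had 0 in the other two. The order of Sp8 and Ebf2 thus rested on peaks that were not among the 6571 of lowest q-value, and every nasal list was longer than every jaw list. The part of list length in the nasal values was not tested further.

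Over the 3 stages, the slope of the scaled number on embryonic day was tested for the same 6 genes, with all 10 libraries and 4200 assignments of stage. For Ebf3 the scaled number was 2.16 ± 0.430 (SD, n = 4) at e11.5, 1.44 ± 0.499 (n = 3) at e13.5 and 1.002 ± 0.433 (n = 3) at e15.5. Every e15.5 library lay below every e11.5 library, against 1.84% of the genes tested in this direction. Its slope was −0.293 per day (exact permutation p = 0.00905, adjusted p = 0.5683 by Benjamini-Hochberg over 12651 genes). The groups also did not overlap at equal yield, against 3.79% of genes, or in base pairs covered, against 3.9%. In unscaled numbers they did overlap. The other 5 genes had slopes of −0.380 for Ebf1, −0.209 for Ebf2, −0.194 for Sox2, −0.167 for Sp8 and −0.00782 for Emx2, with exact permutation p-values from 0.0974 to 0.973. Of all genes, 0 passed 0.05 after adjustment and 852 had an unadjusted p under 0.05. Since the e11.5 set holds 2 nasal plates and the later sets 1 nose each by label, tissue mix cannot be told apart from stage here.

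The 128 peaks merged into 52 regions, of which 41 were more than 1 kb from every annotated start site and 30 overlapped the body of their gene. Neither of these counts was set against its share of all merged regions. Each of 26 regions was found in a single library, 50% against 44.5% of all merged regions. Of the 48 regions with a peak at e11.5 or e13.5, 6 were in all 3 nasal and no jaw library, 12.5% against 7.11% of the 35786 such regions of all genes. They were 2 of Sp8, 2 of Sox2 including its start, 1 of Emx2 and 1 of Ebf2. At equal yield 0 of these 6 kept the pattern, which 0.39% of all regions then had. In the other direction, 3 regions had a jaw but no nasal peak, 1 each of Ebf2, Sox2 and Neurog1, each in 1 library and at most 393 bp wide.

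Other genes of the olfactory lineage were taken from lists of 30 genes: 11 of the placode and progenitors, 10 of neurogenesis and 9 products of neurons. Of these, 24 had a peak in at least 1 library, against 14974 of all 21938 protein-coding genes. The listed genes with none included Neurog2, Nhlh2, Stmn2, Omp, the olfactory marker protein of mature olfactory neurons, and Dcx. Of the 15 with enough peaks, 3 had every nasal above every jaw library, against 9.45% of all genes tested. Another 2 had every nasal below every jaw library. The 3 above were Eya2, with 6, 6 and 10 peaks in the nasal and 0, 1, 1 and 0 in the jaw libraries, Otx2, with 4, 1 and 1 against 0, and Uncx, with 2, 1 and 2 against 0. Otx2 and Uncx passed the filter only through nasal peaks, so their order was partly set by it. In the other direction the share over all genes was 20%. The 2 below were Six4, with 1 peak in each of the 7 libraries, and Gng8, with 1 in each but the nose of e13.5, which had 2. For these, a like number of peaks became a lower scaled number in the longer lists. At equal yield 0 of the 30 genes lay above in all nasal libraries. Between stages, 1 of 16 tested, Gap43, lay higher in every e15.5 than in every e11.5 library, against 6.61% of all genes, and 0 lay lower.

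Markers of other cells that facial tissue could hold were counted in the same way. Summed peaks of 8 surface epithelium genes were 13 to 26 in the nasal and 1 to 4 in the jaw libraries, and those of 7 facial mesenchyme genes 27 to 34 and 9 to 14. For 7 forebrain and eye genes they were 4 to 7 and 0 to 2, for 5 glia and Schwann cell precursor genes 3 to 6 and 0 to 1, and for the 6 cranial ganglion genes matched of 7 they were 0 to 2 and 0. The ganglion markers Pou4f1 and Tlx3 and the forebrain and eye markers Eomes, Nkx2-1 and Rax had no peak in any library. Unscaled, all of these lists but that of the ganglion had more peaks in every nasal than in every jaw library. Scaled, of these marker lists that of the epithelium alone was apart, at 6.34 to 10.02 in the nasal and 1.45 to 3.72 in the jaw libraries. Of its 7 genes tested, 3 had every nasal above every jaw library, against 9.45% of all genes tested. These 3, Trp63, Esrp1 and Perp, had 0 peaks in jaw libraries and passed the filter only through nasal peaks. The mesenchyme list had 13.11 to 13.83 and 10.71 to 20.33, the forebrain and eye list 1.84 to 2.70 and 0 to 3.04, the glia list 1.16 to 2.77 and 0 to 1.45, and the ganglion list 0 to 0.922 and 0. The olfactory neurogenesis list was also apart when scaled, at 2.31 to 3.42 and 0 to 1.45. So were the Ebf genes, at 6.55 to 8.76 and 2.79 to 4.57, and Emx2, Sp8 and Sox2 summed, at 4.61 to 5.86 and 0 to 3.04. The olfactory placode and neuron product lists and the proneural factors overlapped. The part of the cell markers in the values of the 8 genes was not tested.

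The genes whose scaled numbers across the 10 libraries were most like those of each of the 8 were ranked by Pearson's r among 1595 genes with at least 20 peaks. For Sp8 they were Adamts20 (r = 0.937) and Ext2 (0.928), for Sox2 Sfrp1 (0.954) and Itga9 (0.942), and for Emx2 Nfkb1 (0.866) and Lrig1 (0.839). For Ebf1 they were Trim71 (0.928) and Gm21954 (0.921), for Ebf2 Wwox (0.891), and for Ebf3 Ror1 (0.898) and Lix1 (0.871). For Neurog1 the values, Sfswap (0.955) and Gstcd (0.952), rest on 2 peaks. Among the 8 genes, r was highest between Ebf2 and Sp8 (0.878) and between Sp8 and Sox2 (0.71). All these points share libraries and list lengths, so they describe the lists and carry no test.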

How the data were processed

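Deposited broad peak lists of 10 H3K27ac ChIP-seq libraries were analysed, and 10 input samples were not analysed here. Per the labels, chromatin from fresh tissue was sonicated, precipitated with an antibody against the mark and prepared with a TruSeq kit. MACS2 2.2.4, BWA 0.7.7, SAMtools 0.1.19 and the build mm10 are given in the submitters' processing notes, with no settings. The study's methods give broad peak calling at a q-value under 0.05, in a passage on mapping to the human genome, and do not state whether this held for the mouse lists. The lists deposited by the authors hold, per sample, each peak's position, a score, a fold enrichment (ratio to background) and the −log10 of the p-value and q-value. These were computed within each list, so q-values rank peaks within a library, are printed as deposited and do not compare libraries, also where 1 minimum is set for all. Read depth is unknown, and peak numbers can follow depth and enrichment.

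Of 144896 peaks, the 144852 on the autosomes, X and Y were used. All 208 last peak ends per library and chromosome lay within GRCm38. Genes and protein-coding start sites came from GENCODE vM21, and a peak could belong to several genes. Regional and stage differences were tested per gene by exact permutation over libraries, with Benjamini-Hochberg adjustment over all genes with at least 3 peaks. As each tissue had 1 library per stage, p-values measure the spread between different tissues. Merged regions joined touching or overlapping peaks. The genes, lists and tests were chosen with earlier results of these data known. Genes named were the 8 genes, those of the olfactory lists that did not overlap between groups, genes of the lists without any peak, and for each of the 8 genes the 2 others of highest r, ties taken alphabetically. The names of genes without a peak were added after their values were seen. Some genes and 1 sequence that these rules select are not reported here. Peak assignment equalled that of bedtools 2.31.1 for all 7325 gene body and 8258 nearest-start pairs of a library. In counts simulated for the regional comparison, 119 of 200 genes planted at 4-fold and 183 of 200 at 8-fold had every nasal above every jaw library, as did 5.41% of 10569 genes with nothing planted, and 0 passed the adjusted test. Alternatives were equal yield, a minimum −log10 q of 2, unscaled numbers, base pairs covered, other rules of assignment, distal peaks only, no filter, leaving out each library, the e15.5 libraries by label, exchange of libraries within a stage only, and e11.5 against e15.5 only. Work was done in Python 3.11.15 with scipy 1.17.1, pandas 2.3.3, numpy 2.4.6 and, for plots, matplotlib 3.10.9.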

Additional observations from a re-analysis of the deposited data

Results flagged for a closer look

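In 13 groups of 4 libraries, 6 values stood apart from the other 3 by the ratio of the gap to the range (Dixon's 95% limit). Among the jaw libraries these were Ebf2 in the e13.5 mandibular process (1.45 peaks per 10000), Sox2 in the e11.5 mandibular process (1.19) and Neurog1 in the e11.5 maxillary process (1.52), each a single peak where the other 3 libraries had 0. Among the e11.5 libraries, Ebf1 was low in the mandibular process at 1.19, Ebf3 was low in the maxillary process at 1.52, and Neurog1 was high in the maxillary process at 1.52. Each of these values also comes from 1 peak. The limit is made for continuous values, so its rate of 1 in 20 groups does not hold for counts this low. A single peak against 0 in the other 3 libraries gives a ratio of 1 and always passes, so no chance rate is given.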

How the results depend on the processing

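The number of genes past 0.05 after adjustment was 0 in every alternative of both comparisons. For nasal against jaw this was fixed in advance in some alternatives, where no exact permutation p could be under 0.05. The smallest such p was 0.0667 or 0.1 with a library left out. It was 0.0556 with exchange within a stage and 0.333 with e11.5 libraries only. Of the 8 genes, the number with every nasal above every jaw library, 2 as reported, was 0 at equal yield and with the e15.5 libraries by label, 6 for unscaled numbers, and 1 with nearest start sites only or distal peaks only. It ranged from 2 to 4 when a library was left out: 4 without the e11.5 mandibular process (Ebf3 and Sox2 added) and 4 without the e11.5 maxillary process (Ebf1 and Emx2 added). The count over all genes, 1107 as reported, was 44 at equal yield, 2590 unscaled and 40 with e15.5 by label, and ranged from 785 to 2554 with a library left out, the highest without the e13.5 maxillary process. With e11.5 libraries only, chosen after seeing the data, it was 1673, and 148 at equal yield with 0 of the 8 genes. Genes with every e15.5 below every e11.5 library, 233 as reported, were 68 unscaled, 493 in base pairs and 143 for distal peaks, where Ebf1 and not Ebf3 was among them, and 233 to 446 with a library left out (over 1.5 times without each of the e11.5 mandibular process, 423, maxillary process, 446, medial nasal plate, 357, and the e15.5 libraries labelled mandibular process, 373, and nose, 417). Start-site peaks of the 8 genes, 29 gene and library pairs as reported, were 10 at equal yield, and the 6 nasal regions were 3 where a peak had to cover at least 50% of the region and 0 at equal yield, the latter chosen after seeing the data. The nasal difference reversed at equal yield for Ebf1 (−1.52, and −2.28 at e11.5 only) and Emx2 (−0.634), and in base pairs for Ebf3 (−83.8 bp per Mb). The slope reversed for Ebf2 with nearest start sites only (0.0361) and for Emx2 at equal yield (0.187), in base pairs (37.97 bp per Mb per day) and between e11.5 and e15.5 only (a difference of 0.0134), and for Emx2 ranged from −0.136 to 0.125 with a library left out. With a library left out, the slope fell in size to −0.0607 for Ebf2 and −0.0799 for Sp8 without the e11.5 lateral nasal plate and to −0.0499 for Sox2 without the medial nasal plate, and the nasal difference to 0.920 for Ebf1 without the e13.5 mandibular process and 0.549 for Emx2 without the e11.5 mandibular process. Exchange within a stage left the 2 of 8 genes and the 1107 as they were, since the order of libraries does not depend on the assignments. The causes were not tested. Unknown read depth limits every statement on a missing peak.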
